A study of Mus musculus with 10 samples.

Results

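The genes described here are 10 components of the JNK signalling route, namely the kinases Mapk8, Mapk9, Map2k4, Map2k7, Map3k1, Map3k5 and Map3k7, the scaffold Mapk8ip1 and the phosphatases Dusp10 and Dusp16. They were chosen by name, and every probe set that the array annotation assigns to a single one of them was taken. This gave 26 probe sets for 9 of the 10 genes, out of 34945 probe sets for 18193 genes, and Map2k7 was not analysed here. RNA came from the liver of ApoE-/- mice, 1 mouse per Affymetrix mouse genome array. In 5 mice a control adenovirus expressing GFP, a fluorescent protein, had been given (control, numbered 11 to 15 in the labels), and in 5 an adenovirus expressing dominant negative cJun (dn-cJun, numbered 16 to 20). By their labels all 10 mice thus share the ApoE-/- genotype and an adenoviral infection, and no uninfected mouse was analysed here. Age, sex, dose and time after infection are not given in the sources used here, nor are the promoter of the virus and the liver cells it reached.

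JNK, the cJun N-terminal kinase, is the last kinase of a relay. A MAP3K such as Map3k1 (MEKK1), Map3k5 (ASK1) or Map3k7 (TAK1) phosphorylates the MAP2Ks Map2k4 (MKK4) and Map2k7 (MKK7), and these phosphorylate Mapk8 (JNK1) and Mapk9 (JNK2), which in turn phosphorylate cJun, part of the AP-1 transcription factor. Mapk8ip1 (JIP1) is a scaffold that holds kinases of the relay together, and Dusp10 (MKP5) and Dusp16 (MKP7) are dual specificity phosphatases that remove the activating phosphates from JNK. In the liver JNK is known for its part in stress and inflammatory signalling and in insulin resistance. The relay works by phosphorylation, which an expression array does not measure.

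A dominant negative cJun acts on genes with AP-1 elements, so the promoters of the named genes were searched for such elements in RefSeq's mouse sequences (GRCm38.p6, 250 bases before to 50 after the annotated start, both strands). Of the 10 genes, 9 had an entry, with 12 promoters among them, and Mapk8ip1 had none. The AP-1 element TGANTCA was present in 0 of the 10 promoters of genes with a probe set, and in 7.81% of all 32851 promoters. Its 1 match among the 12 lay in the second listed promoter of Map2k7, 92 bases before that start. The full cyclic AMP response element TGACGTCA, to which heterodimers of cJun and ATF proteins bind, was in none of the 12, against 1.79% of all promoters. Its core TGACGT, which the full element contains, was found in 2 promoters, 36 bases before the start of Mapk8 and 244 bases before that of Map3k7, against 7.51% of all promoters. Those 2 promoters are printed 5′ to 3′ because they are the ones with a match among genes that were measured, and the capitals mark the core on either strand.
Mapk8 promoter, GRCm38.p6 chr14:33447109-33447408, minus strand: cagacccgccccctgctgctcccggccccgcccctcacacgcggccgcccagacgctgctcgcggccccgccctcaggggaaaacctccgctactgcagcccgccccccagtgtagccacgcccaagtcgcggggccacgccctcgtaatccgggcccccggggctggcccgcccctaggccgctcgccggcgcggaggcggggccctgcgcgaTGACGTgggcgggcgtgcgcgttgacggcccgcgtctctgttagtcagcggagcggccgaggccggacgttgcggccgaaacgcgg
Map3k7 promoter, GRCm38.p6 chr4:31963857-31964156, plus strand: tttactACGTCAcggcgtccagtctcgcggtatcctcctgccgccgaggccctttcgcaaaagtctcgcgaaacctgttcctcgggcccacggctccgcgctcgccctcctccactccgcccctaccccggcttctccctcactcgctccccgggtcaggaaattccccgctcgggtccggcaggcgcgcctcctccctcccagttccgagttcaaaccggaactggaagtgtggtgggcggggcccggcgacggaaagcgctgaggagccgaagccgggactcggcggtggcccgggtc
These matches describe letters in a 300-base window and are not binding sites.

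The labels were checked before the groups were compared. Apoe, the gene lost in every mouse according to the labels, was at a log2 signal of 9.42 to 10.94 in the control arrays and 15.31 to 15.82 in the dn-cJun-labelled arrays, a difference of 5.41 (SE 0.22, limma adjusted p = 1.97e-08). A signal of that size goes against the ApoE-/- label of the second group, and the sources used here do not place the probe set relative to the mutation. For Jun, the gene of cJun, both probe sets overlapped between the groups, at -0.07 (95% interval -0.42 to 0.29) and -0.11 (-0.60 to 0.38). Whether they read the viral transcript is not given, so Jun does not check the virus. Xist, which coats the inactive X chromosome, was on its brightest probe set at 13.71 and 13.63 in controls 14 and 15 and at 5.90 to 6.72 in the other 8 arrays, while Y-linked Eif2s3y was at 5.22 and 4.08 in those 2 and at 10.58 to 11.13 in the others. By these transcripts controls 14 and 15 were female and the other 8 arrays male, so the sexes were not balanced between the groups. Counts are therefore also given without these 2 controls. Hepatocyte markers had a summed signal of 366931 to 392466 in the control arrays and 383549 to 415160 in the dn-cJun-labelled arrays, over 8 of 8 markers above the filter, and none was called among 14 probe sets. Macrophage and Kupffer cell markers summed to 20748 to 30987 and 17650 to 20925, ranges that just overlapped, with Timd4 below the filter. Of 11 probe sets 9 were lower and 2 higher. Among these, 2 were called lower, those of Lyz2 at -0.70 and Cd5l at -0.57. The uncalled ones lay between -0.27 for Cd68 and 0.24 for a probe set of Marco. For the 5 other cell types of the marker lists the summed signals overlapped as well, and none of the 35 probe sets was called. The 3′ minus 5′ log2 signal of the Actb control probe sets, a measure of RNA integrity, lay between 0.35 and 0.45 in the controls and between 0.47 and 0.63 in the dn-cJun-labelled arrays (two-sided exact permutation p = 0.00794, 0.0159 adjusted over 2 genes), and for Gapdh the ranges overlapped (exact permutation p = 0.405). Apoe signal and virus differ together between the groups, so in every comparison that follows they cannot be told apart. The part of the macrophage markers and of RNA integrity in the results was not tested.

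No probe set of the 9 measured JNK genes passed the test between the groups. Of the 26, 24 passed the filter on low signal, and 0 of these 24 were called at a limma adjusted p under 0.05, where 0.744% of all 22847 probe sets tested were called (0.293% as higher and 0.451% as lower). The smallest adjusted p among them was 0.248. At an unadjusted p under 0.05 there were 2 of 24, or 8.33%, against 13.6% of all probe sets tested. With the values taken as deposited this count was 8 of 24, against 23.8% of all, and with 1 array left out it was 0 to 4. The group ranges overlapped in each of the 24, and did not overlap in 3.74% of all probe sets tested. Of the 24, 11 were on the higher side of 0, where 49.4% of all tested were, and 13 on the lower. Their median log2 fold change was -0.04 against -0.0033 over all tested, and the median size was 0.17 against 0.15. Without controls 14 and 15, again 0 of the 23 probe sets that passed the filter were called (smallest adjusted p = 0.375), where 72 of all 22849 were. The probe set of Mapk8ip1 did not pass the filter there. In liver as a whole, fewer cells of a type and less RNA per cell cannot be told apart.

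The missing calls bound the changes only as far as the intervals reach. In 15 of the 24 the 95% interval of the fold change lay within 1.5-fold in either direction, or 62.5%, against 59.7% of all probe sets tested. The narrowest intervals were those of bright probe sets of Map3k5, Mapk9 and Map3k7 (SE of 0.08 to 0.09), and the widest was that of Mapk8ip1, which ran from 0.664-fold to 2.50-fold.

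**Figure D1:**
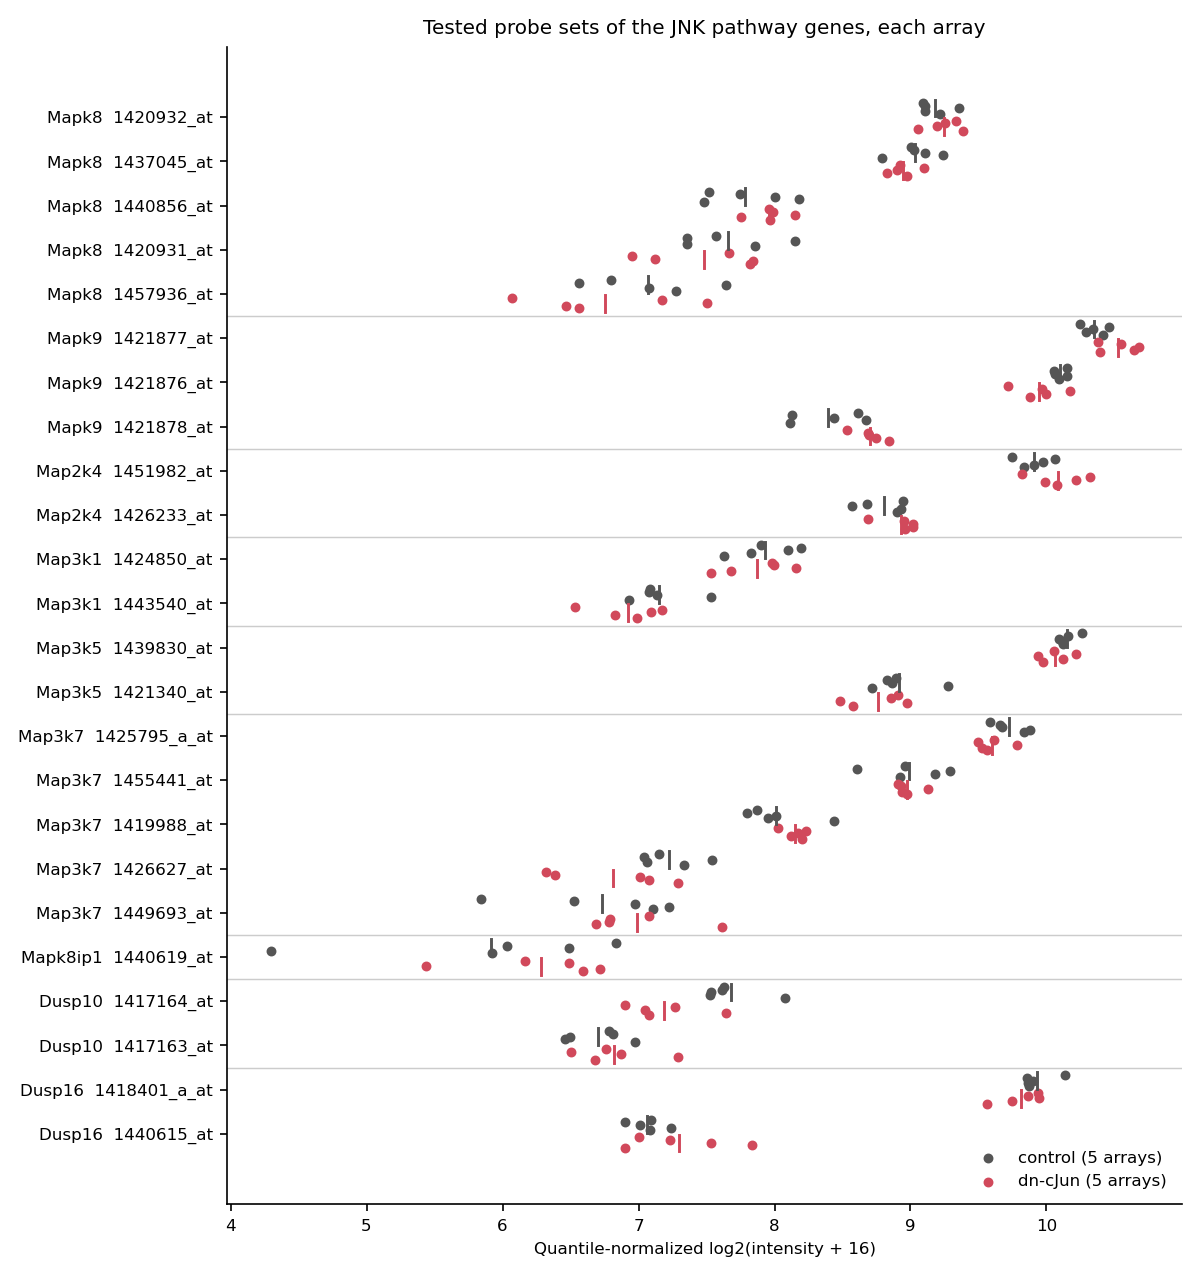
Quantile-normalized log2(intensity + 16) of the 24 tested probe sets on each array, with 5 control arrays (grey, upper) and 5 dn-cJun-labelled arrays (red, lower) per probe set and a vertical bar at each group mean. In every row the 2 groups overlap, and the spread is wider in the dimmer probe sets, up to the 4.30 to 6.84 of the Mapk8ip1 controls.

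**Figure D2:**
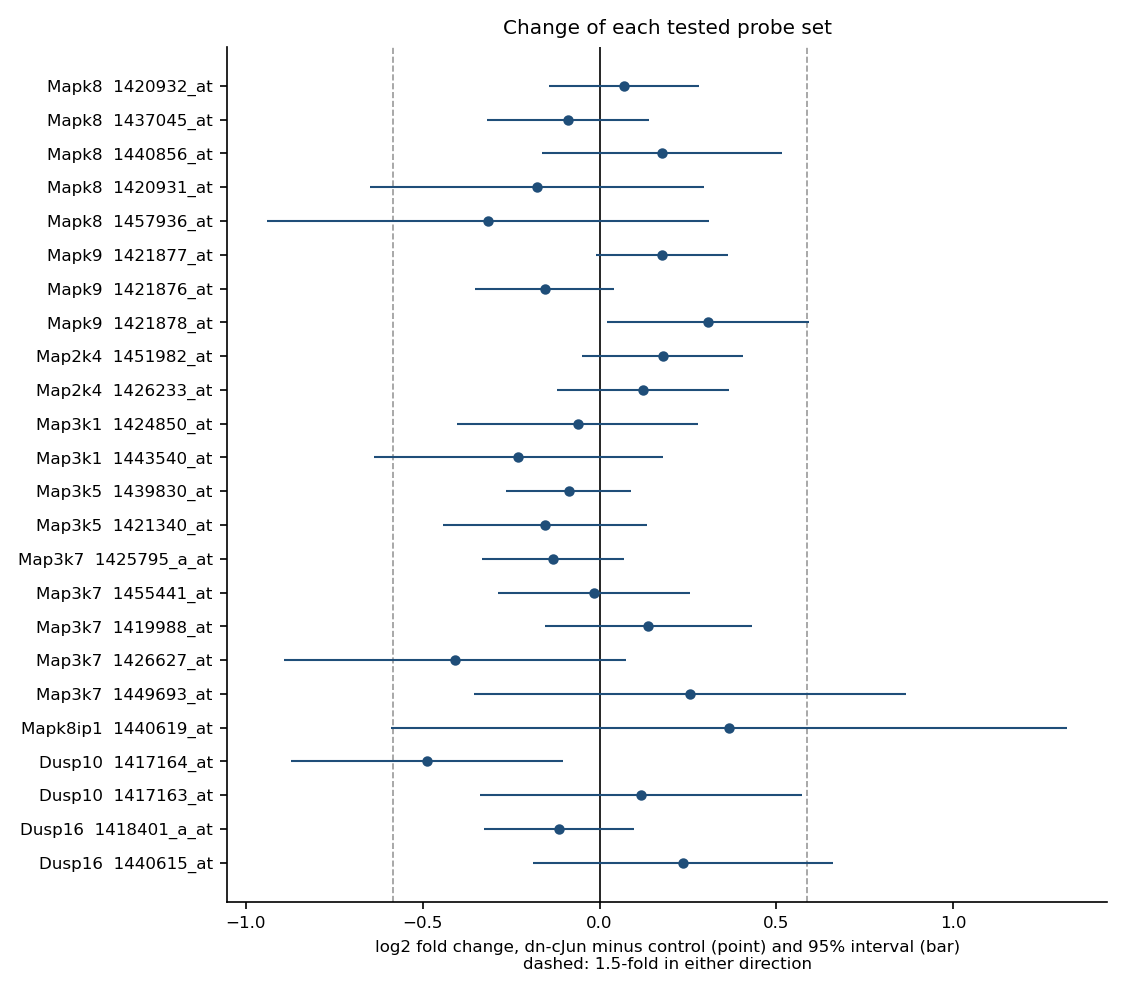
Log2 fold change of each tested probe set (point) with its 95% interval from limma (bar), dn-cJun-labelled arrays minus control, and dashed lines at 1.5-fold. Intervals of 2 probe sets leave out 0, 1421878_at of Mapk9 and 1417164_at of Dusp10, and neither passed the adjusted threshold.

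Mapk8, which encodes JNK1, had 5 probe sets, all tested, with 2 on the higher and 3 on the lower side of 0. The brightest, 1420932_at, had log2 signals of 9.22, 9.11, 9.36, 9.11 and 9.09 in controls 11 to 15 and of 9.39, 9.05, 9.20, 9.26 and 9.33 in the dn-cJun-labelled arrays 16 to 20. Dn-cJun 16 and 17 were the highest and the lowest of the 10 arrays. The log2 fold change was 0.07 (SE 0.10, limma adjusted p = 0.817), with a 95% interval from 0.905-fold to 1.22-fold. For 1437045_at it was -0.09 (SE 0.11), and the control arrays spanned 8.79 to 9.24 around the 8.82 to 9.10 of the dn-cJun-labelled arrays. The 3 dimmer probe sets were less precise. Their log2 fold changes were 0.18 (SE 0.16) for 1440856_at, -0.18 (SE 0.22) for 1420931_at and -0.32 (SE 0.29) for 1457936_at. The last had a 95% interval from 0.522-fold to 1.24-fold, and without controls 14 and 15 it was at -0.57 (limma adjusted p = 0.516).

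Mapk9, which encodes JNK2, had 3 probe sets, and they did not lie on the same side of 0. On 1421877_at, the brightest, controls 11 to 15 were at 10.42, 10.29, 10.34, 10.46 and 10.24 and the dn-cJun-labelled arrays at 10.40, 10.64, 10.68, 10.55 and 10.38. All 5 of the latter lay above the control median and 3 above the highest control. Between the groups the log2 difference was 0.18 (SE 0.09, 95% interval -0.01 to 0.36, limma adjusted p = 0.394). For 1421876_at the controls were at 10.10, 10.15, 10.06, 10.06 and 10.15 and the dn-cJun-labelled arrays at 9.88, 9.9965, 10.17, 9.97 and 9.72. The controls lay close together, while 4 of these 5 lay below the lowest control and 1 above the highest. Its log2 fold change was -0.15 (SE 0.09, 95% interval -0.35 to 0.04, limma adjusted p = 0.493). The third, 1421878_at, was at 8.11, 8.67, 8.44, 8.13 and 8.61 in the controls and at 8.84, 8.75, 8.69, 8.68 and 8.53 in the dn-cJun-labelled arrays. In this one 4 of 5 exceeded the highest control, and controls 11 and 14 were the lowest. At 0.31 (SE 0.13), or 1.24-fold, it had an unadjusted limma p of 0.0378, and an adjusted p = 0.331.

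Map2k4, the MAP2K that also activates p38 kinases, had 2 probe sets and both were on the higher side. Log2 signals of 1451982_at were 9.83, 9.91, 9.97, 10.06 and 9.75 in the controls and 10.08, 9.99, 10.22, 10.32 and 9.82 in the dn-cJun-labelled arrays. Dn-cJun 17 and 20 lay among the controls and dn-cJun 16, 18 and 19 above all of them. The log2 fold change was 0.18 (SE 0.11, limma adjusted p = 0.493). For 1426233_at it was 0.12 (SE 0.11, limma adjusted p = 0.689). There 4 of the 5 dn-cJun-labelled arrays were within 8.96 to 9.02, above the highest control at 8.94, and dn-cJun 20 was at 8.68.

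The MAP3Ks stand at the entry of the relay. Map3k1, which is activated by growth factor and cytokine receptors, had 2 probe sets on the lower side. For 1424850_at the controls spanned 7.63 to 8.20 and the dn-cJun-labelled arrays 7.54 to 8.15, a log2 fold change of -0.06 (SE 0.16), and it was at 0.02 without controls 14 and 15. For 1443540_at it was -0.23 (SE 0.19, limma adjusted p = 0.648), with controls at 6.93 to 7.54 and the other group at 6.54 to 7.17.

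Map3k5, which responds to oxidative stress, had the smallest SE of the 24 probe sets, on 1439830_at. There controls 11 to 15 were at 10.12, 10.12, 10.09, 10.16 and 10.26 and the dn-cJun-labelled arrays at 9.97, 10.12, 9.94, 10.22 and 10.06. In 3 of the 5 the signal was below the lowest control and in none above the highest. The fold change on the log2 scale was -0.09 (SE 0.08, limma adjusted p = 0.695), with a 95% interval from 0.833-fold to 1.06-fold. Its second probe set, 1421340_at, was at -0.15 (SE 0.13).

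Map3k7, which links interleukin-1, Toll-like and TNF receptors to JNK and NF-kB, had 6 probe sets, of which 5 were tested. Its brightest, 1425795_a_at, was at 9.84, 9.88, 9.68, 9.66 and 9.59 in the controls and at 9.56, 9.52, 9.78, 9.50 and 9.61 in the dn-cJun-labelled arrays. Of these, 3 of 5 lay below the lowest control, and dn-cJun 18 and 20 lay between the controls. The log2 fold change was -0.13 (SE 0.09, limma adjusted p = 0.588), with a 95% interval from 0.795-fold to 1.05-fold. The next, 1455441_at, was at -0.02 (SE 0.13) and 1419988_at at 0.14 (SE 0.14). For 1426627_at the value was -0.41 (SE 0.22, limma adjusted p = 0.454), with dn-cJun 19 and 20 at 6.38 and 6.32 and the other 8 arrays between 7.01 and 7.54. A further probe set, 1449693_at, was at 0.26 (SE 0.28) and at -0.11 without controls 14 and 15, since these were its lowest arrays at 6.53 and 5.84. The sixth, 1447801_x_at, whose suffix marks probes that may bind other transcripts, was below the filter, with means of 5.63 and 5.82.

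Mapk8ip1, the scaffold, was dim on this array. Of its 2 probe sets 1 passed the filter, narrowly, with a mean in percentile 40.7 where the limit was 40. On that one, 1440619_at, controls 11 to 15 were at 5.93, 4.30, 6.49, 6.04 and 6.84 and the dn-cJun-labelled arrays at 6.59, 6.72, 5.44, 6.49 and 6.17. Control 12 was far below the other 9 arrays. The log2 difference was 0.37 (SE 0.44, limma adjusted p = 0.778), and it was -0.04 without control 12. The other, 1425679_a_at, was below the filter at means of 5.21 and 5.70, with dn-cJun 17 at 7.06 and dn-cJun 20 at 6.30.

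Dusp10, a phosphatase of JNK and p38, held the smallest p of the 24 probe sets. On 1417164_at controls 11 to 15 were at 8.08, 7.53, 7.53, 7.62 and 7.63 and the dn-cJun-labelled arrays at 7.08, 7.64, 7.05, 7.27 and 6.90. In this probe set 4 of the 5 dn-cJun-labelled arrays lay below the lowest control, and dn-cJun 17 lay among the controls. The log2 fold change was -0.49 (SE 0.18), or 0.713-fold with a 95% interval of 0.547-fold to 0.931-fold, at an unadjusted limma p of 0.0165 and an adjusted p = 0.248. It was at -0.60 without dn-cJun 17 (limma adjusted p = 0.174), at -0.39 without control 11 and at -0.52 without controls 14 and 15. On 1417163_at the controls were at 6.97, 6.46, 6.50, 6.81 and 6.78 and the dn-cJun-labelled arrays at 6.68, 7.29, 6.87, 6.50 and 6.76. These groups lay over each other except for dn-cJun 17, and the log2 fold change was 0.12 (SE 0.21, limma adjusted p = 0.857).

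Dusp16, a phosphatase that prefers JNK, had a bright probe set, 1418401_a_at, at 9.87, 9.86, 9.90, 9.86 and 10.14 in the controls and at 9.56, 9.75, 9.94, 9.86 and 9.94 in the dn-cJun-labelled arrays. Control 15 was above the other 9 arrays, and dn-cJun 16 and 17 were below them. The mean log2 values of the groups differed by -0.12 (SE 0.10, limma adjusted p = 0.662), with a 95% interval from 0.797-fold to 1.07-fold. The dimmer 1440615_at was at 0.24 (SE 0.20, limma adjusted p = 0.652), with dn-cJun 17 and 18 at 7.83 and 7.54 and the other 8 arrays between 6.90 and 7.24.

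Since probe sets of a gene lay on both sides of 0 in Mapk8, Mapk9, Map3k7, Dusp10 and Dusp16, the signal of each further tested probe set was set against the brightest of its gene within each array. The difference between these log2 values is a balance between probe sets, and a scale factor common to an array leaves it nearly as it is. Among 15 such pairs, 2 (13.3%) had balances whose group ranges did not overlap, in Mapk9 and in Dusp10. The same held for 324 of 10111 such pairs over all genes with several tested probe sets, or 3.2%. Pairs of the same gene share its brightest probe set and are not independent, and the 13.3% rests on 2 pairs. For Mapk9, 1421876_at minus 1421877_at was -0.32, -0.14, -0.28, -0.41 and -0.09 in controls 11 to 15 and -0.51, -0.65, -0.50, -0.58 and -0.66 in the dn-cJun-labelled arrays. Every array labelled dn-cJun lay below every control. The difference of means was -0.33, and its exact permutation p of 0.00794 was the smallest that 5 arrays against 5 can give. Adjusted over the 15 pairs it was 0.0595 and did not pass. For Dusp10, 1417163_at minus 1417164_at was -1.11, -1.07, -1.04, -0.80 and -0.85 in the controls and -0.40, -0.35, -0.18, -0.77 and -0.14 in the dn-cJun-labelled arrays. Again the groups did not overlap, with dn-cJun 19 close to control 14. The difference was 0.60, with the same exact permutation p of 0.00794 and the same adjusted value of 0.0595. In both genes the annotation lists 1 source sequence record for the probe sets compared, and their places on the transcript are not given here. The 3′ minus 5′ signal of Actb also separated the groups, as given above, and its part in these balances was not tested.

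For the other 13 pairs the ranges overlapped. The smallest p among these was that of Map3k7 1419988_at against 1425795_a_at, at 0.27 (exact permutation p = 0.0476, adjusted 0.238). The third Mapk9 probe set against the brightest gave 0.13 (exact permutation p = 0.429), with the controls spread from -2.33 to -1.62. With 15 pairs, 1 pair at the smallest p of this design has an adjusted value of 0.119 and 2 have 0.0595, so the design could not have passed fewer than 3, and the lack of a pass says nothing about these 2. Without controls 14 and 15 the balances were -0.33 in Mapk9 and 0.69 in Dusp10. With 1 array left out they lay between -0.37 and -0.29 and between 0.55 and 0.71. A pseudocount of 64 gave -0.32 in Mapk9 and 0.46 in Dusp10, and a pseudocount of 1 gave -0.34 and 0.67. Another scaling of whole arrays nearly cancels in a balance and is no check of it.

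**Figure D3:**
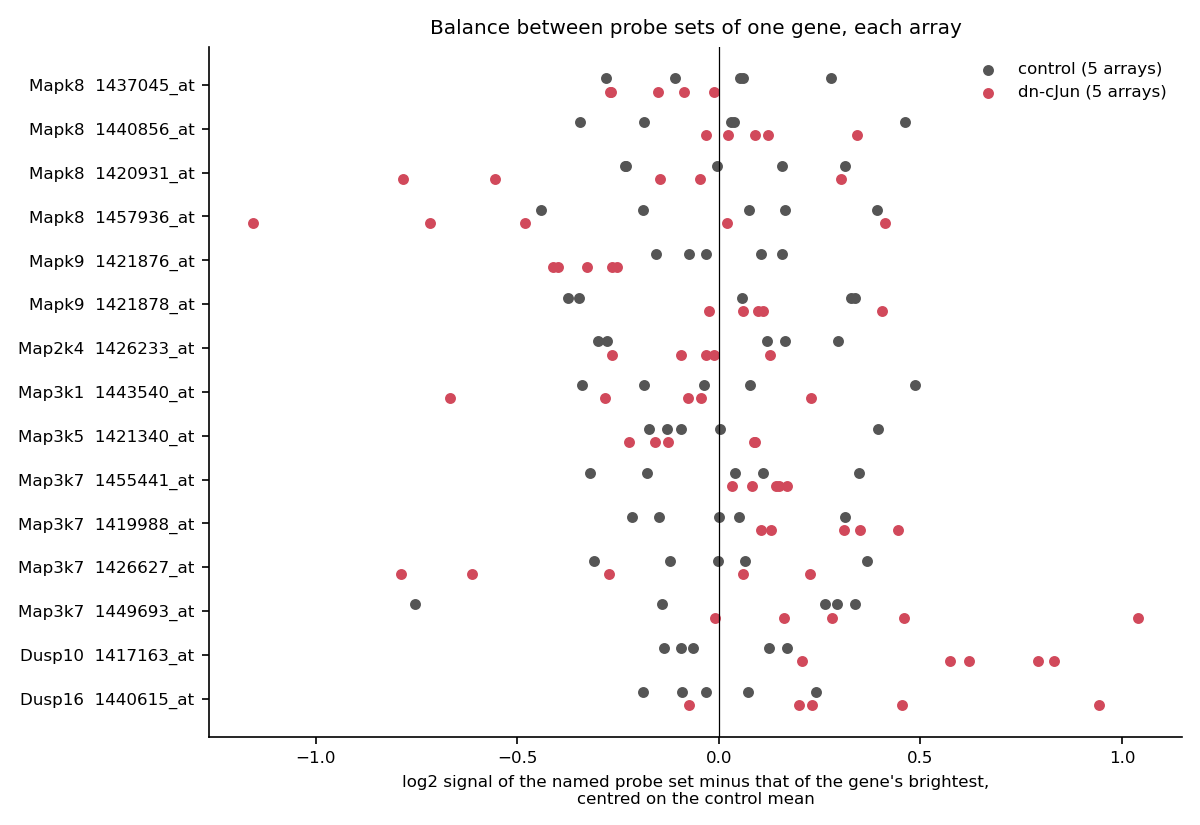
Log2 signal of each further tested probe set minus that of its gene's brightest on the same array, centred on the control mean, for 15 pairs with 5 control arrays (grey) and 5 dn-cJun-labelled arrays (red). The groups separate in the row of Mapk9 1421876_at, where the shift is -0.33, and in that of Dusp10 1417163_at, where it is 0.60, and they overlap in the other 13.

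The balance between related genes was compared in the same way, from the brightest probe set of each. Mapk8 minus Mapk9 was -1.17 ± 0.13 (SD, n = 5) in the controls and -1.28 ± 0.26 (SD, n = 5) in the dn-cJun-labelled arrays, a difference of -0.11 (exact permutation p = 0.429, adjusted over 3 pairs 0.643). The levels themselves cannot be ranked, since probe sets bind with different strength. Dusp10 minus Dusp16 differed by -0.37 between the groups, with controls at -2.51 to -1.79 and the other arrays at -3.04 to -2.11 (exact permutation p = 0.127, adjusted 0.381). Map3k5 minus Map3k1 differed by -0.03 (exact permutation p = 0.865, adjusted 0.865). The planned balance of Map2k4 and Map2k7 was not computed for want of a Map2k7 value. None of the 3 passed. The SD of the Dusp10 and Dusp16 balance was 0.27 in the controls and 0.37 in the dn-cJun-labelled arrays. Over the 16 alternatives run for it, its difference between the groups lay between -0.50 and -0.26. The -0.50 was without dn-cJun 17, with the smallest adjusted p (exact permutation p = 0.0238, adjusted 0.0714). The -0.26 was without control 11 (exact permutation p = 0.246, adjusted 0.667).

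The rest of the pathway was described by 6 lists of 101 other genes, of which 82 had a tested probe set. Of 198 probe sets tested, 1 was called, as higher, and 30 or 15.2% had an unadjusted p under 0.05, against 13.6% of all probe sets tested. That probe set was the 1 of Gadd45g, a stress-induced protein that binds the MAP3K Map3k4. It was at 8.58, 9.30, 9.35, 9.39 and 8.53 in the controls and at 9.49, 10.05, 9.90, 10.56 and 10.39 in the dn-cJun-labelled arrays. The groups did not overlap. Gadd45g rose by 1.05 on the log2 scale (SE 0.22, limma adjusted p = 0.0447). With 1 array left out its adjusted p was 0.0404 to 0.118, so the call was lost in 8 of 10 such fits (only those without control 12 or dn-cJun 16 kept it), and without controls 14 and 15 it was 0.0890. Its relative Gadd45a was at -0.97 (SE 0.30, limma adjusted p = 0.164) and did not pass. For Gadd45b the 3 probe sets were at -0.58 (SE 0.18, limma adjusted p = 0.178), 0.16 and 0.42, and none passed.

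Among upstream adaptors and regulators, which join receptors to the MAP3Ks, 17 of 36 probe sets lay above 0 and 19 below, at a median of -0.01, with no call other than Gadd45g. Traf2, an adaptor of the TNF receptor, was at 0.01 (SE 0.13). Traf6, the adaptor upstream of Map3k7, was at -0.44 (SE 0.18, limma adjusted p = 0.297) on 1421376_at, and its 3 other tested probe sets were at -0.03 to 0.15. Tab2, a partner protein of Map3k7, was at -0.48 (SE 0.19, limma adjusted p = 0.282) on 1451003_at and at 0.0069 (SE 0.07) on 1423462_at. These 3 genes were named after their values were seen.

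Other MAP3Ks and MAP4Ks had 24 of 41 probe sets higher, a median of 0.06 and none called. The smallest p of that list was that of Map3k3, an activator of the JNK and ERK5 routes, at -0.96 (SE 0.37, limma adjusted p = 0.274) on 1426687_at, where dn-cJun 19 stood at 5.10 and the controls at 7.22 to 7.92. Its other probe sets were at 0.26 and -0.04. The other JNK kinase and scaffold genes had 6 of 13 higher and none called. Their smallest p was that of a probe set of Arrb2, a beta-arrestin that scaffolds JNK kinases, at -0.39 (SE 0.12, limma adjusted p = 0.179). Other MAP kinase phosphatases had 14 of 29 higher, a median of -0.02 and none called. A probe set of Ppm1b, a phosphatase that acts on Map3k7, had their smallest p, at -0.24 (SE 0.08, limma adjusted p = 0.201). Dusp1, the inducible phosphatase of JNK and p38, named after its value was seen, was at 0.65 (SE 0.27, limma adjusted p = 0.318), with controls at 10.65 to 12.06 and the other arrays at 11.25 to 12.48.

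The kinases of the p38 and ERK modules, which run beside JNK and share some of its activators, had 20 of 25 probe sets on the higher side and none called. Their median log2 fold change was 0.19, against -0.0033 over all probe sets tested, and 7 of 25, or 28%, had an unadjusted p under 0.05, against 13.6% of all. Taken as deposited, where the median over all probe sets was -0.20, the list's median was -0.03 and 12 of 25 were higher. It was 0.13 with equal array medians and 0.16 with a trimmed mean of 500 per array, and 0.17 without controls 14 and 15. All probe sets tested had medians of -0.04, -0.02 and -0.0044 in those settings. The smallest p here belonged to Map2k5, the activator of ERK5, whose 4 probe sets were at 0.41 (SE 0.13, limma adjusted p = 0.179), 0.17, 0.05 and -0.01. Several probe sets of this list belong to the same gene and are not independent.

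Of the JNK substrates, 23 of 54 probe sets lay above 0 and 31 below, at a median of -0.04, and none was called. Group ranges did not overlap in 3.74% of all probe sets tested, in 6 of the 198 of all lists and in 4 of these 54. The smallest p was that of Ywhaz, a 14-3-3 protein that JNK phosphorylates, at -0.28 (SE 0.06, limma adjusted p = 0.0635), with controls at 12.49 to 12.69 and the dn-cJun-labelled arrays at 12.19 to 12.36. The others of this list without overlap were named after their values were seen. They were Itch, a ubiquitin ligase that JNK activates, at 0.32 (SE 0.08, limma adjusted p = 0.0893), Bcl2l11, the death protein Bim, at -0.40 (SE 0.10, limma adjusted p = 0.106), and Stmn1, which regulates microtubules, at -0.36 (SE 0.11, limma adjusted p = 0.164). Each of these values, that of Ywhaz included, belongs to a probe set and not to the gene as a whole. Any other tested probe set of these genes overlapped between the groups.

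The other 5 lists also had fewer probe sets above 0 with the values as deposited. Their medians there lay between -0.27 and -0.15, where all probe sets tested had -0.20. Taken as deposited, 3 of 13 probe sets lay above 0 among the other JNK kinase and scaffold genes, 13 of 41 among the MAP3Ks and MAP4Ks, 4 of 36 among the adaptors, 3 of 29 among the phosphatases and 6 of 54 among the substrates.

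**Figure D4:**
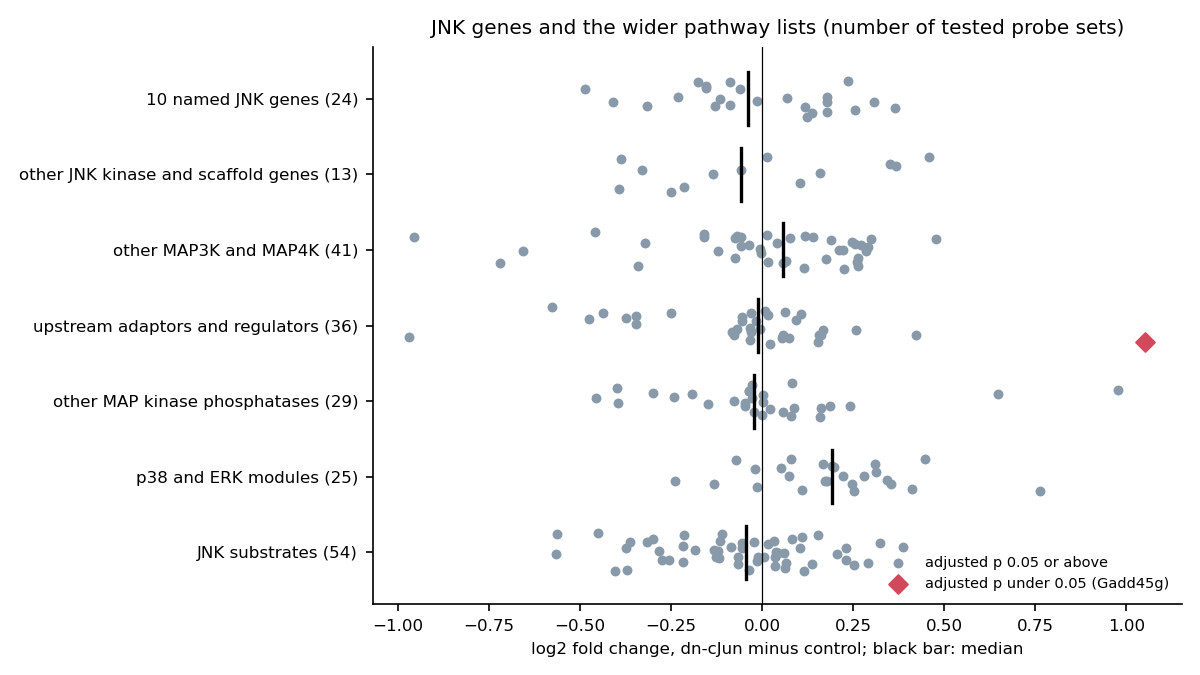
Log2 fold change of each tested probe set, dn-cJun-labelled arrays minus control, for the 10 named JNK genes (24 probe sets, from 9 of them) and the 6 lists of other pathway genes, with a black bar at the median of each row. Gadd45g (red diamond) at 1.05 is the one probe set called, and the p38 and ERK modules have their median at 0.19 with quantile-normalized values.

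Under quantile normalization, equal array medians and a trimmed mean of 500 per array, 11 of the 24 probe sets were higher and 13 lower. Each probe set had the same sign in all of these. Directions moved where the arrays were not rescaled. With the values as deposited, 20 of the 24 probe sets were on the lower side, with a median of -0.26 where all probe sets tested had -0.20. None was called in that setting either, and the smallest adjusted p was 0.0741, for Dusp10 1417164_at at -0.68. In 13 of the 24 probe sets, among them 1417164_at of Dusp10 and 1421878_at and 1421876_at of Mapk9, the sign was the same in all alternatives that kept them. Alternatives in the filter, the probe set types, the brightest probe set per gene and eBayes without trend or robust leave a log2 fold change as it is. The sign could not turn in those.

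**Figure D5:**
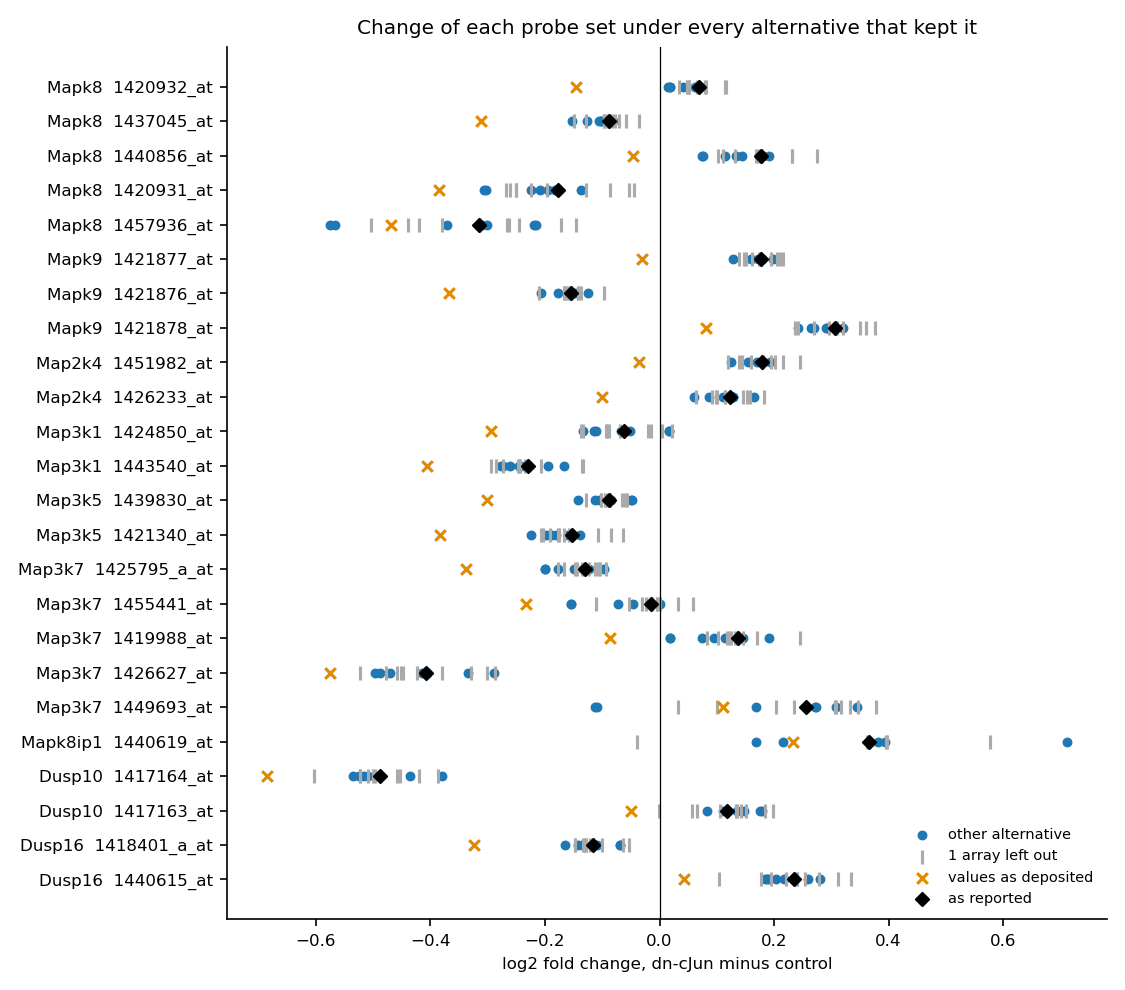
Log2 fold change of the 24 probe sets as reported (black diamond) and under each alternative that kept them, with fits that leave out 1 array (grey), the values as deposited (orange cross) and the other alternatives (blue). The values as deposited lie left of the reported value in all 24 rows, and Dusp10 1417164_at stays between -0.68 and -0.38.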

How the data were processed

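Liver RNA of 10 mice was measured on 1 array each. What was deposited is 1 intensity per probe set, on a linear scale. How the authors made this intensity was not given in the sources used here, and the series matrix held no other unit. Array medians of the deposited intensity were 85.3 to 127.5, and arrays correlated at 0.944 to 0.965 on the log2 scale. Precision is limited by the number of arrays.

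The values were taken as log2(intensity + 16) and quantile-normalized. Of 45101 probe sets, 64 controls were left out and 34945 had 1 gene symbol, standing for 18193 genes. Symbols were updated through Entrez identifiers, of which 99.4% matched the GRCm38.p6 gene table. Probe sets whose mean was at or above the 40th percentile were tested, 22847 in all. Groups were compared with limma 3.58.1 in R 4.3.3 (lmFit, then eBayes with a trend on intensity). The tests were two-sided, with Benjamini-Hochberg adjustment over all probe sets tested and a threshold of 0.05. Intervals are at the 95% level. Fold changes on the log2(intensity + 16) scale understate those of dim probe sets. Balances between probe sets were compared with two-sided exact permutation tests over 252 splits. Figures were drawn with matplotlib 3.10.9.

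The unit was the probe set. All tested probe sets of the 10 genes are named, and of each list the genes called (at most 6) or else the one with the smallest p. Gadd45a, Gadd45b and the genes said to be named after their values were seen fall outside this rule. The genes and lists were chosen with earlier results of these data known, and the promoter motifs after trial searches of the same promoters. The fit was tested on simulated data with 200 changed probe sets in each of 10 repeats. Alternatives covered the scaling, pseudocount, filter, unit, probe set types, eBayes options, array weights, each array left out, controls 14 and 15 left out or given a term, and the threshold.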

Additional observations from a re-analysis of the deposited data

Results flagged for a closer look

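Among the 48 sets of 5 arrays formed by the 24 tested probe sets and both groups, 4 held an array far from the other 4, by Dixon's criterion at 0.71 of the group's range, and chance flags about 1 in 20 such groups. Control 11 was at 8.08 on Dusp10 1417164_at, where the other controls were at 7.53 to 7.63. Control 15 was at 10.14 on Dusp16 1418401_a_at, with the others at 9.86 to 9.90. Dn-cJun 20 was at 8.68 on Map2k4 1426233_at, with the others at 8.96 to 9.02, and dn-cJun 18 was at 9.13 on Map3k7 1455441_at, with the others at 8.91 to 8.97. Each of these belongs to a different array. Control 11 is the array whose extraction entry names Trizol.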

How the results depend on the processing

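No paired analysis was possible because the groups share no replicate numbers. None of the tested probe sets of the named JNK genes was called under any of the 25 refitted settings or at an adjusted threshold of 0.1 or 0.01, and 2 were at an unadjusted threshold of 0.05. No balance between probe sets or between related genes passed under the alternatives run for them, where fewer than 3 of the 15 probe set pairs could not have passed. Without controls 14 and 15 the smallest exact permutation p is 0.0179, so 3 pairs could not have passed there either. Without controls 14 and 15 a lone balance of related genes could not go below an adjusted 0.0536. The count over all probe sets, 170, was 673 as deposited, 108 at equal medians of the arrays, 103 without _x_at and _s_at probe sets, 27 in eBayes without trend, 72 without controls 14 and 15, and 363, 25 and 3109 at thresholds of 0.1, 0.01 and an unadjusted 0.05. By gene it was 99 with the brightest probe set and 44 with the mean. With 1 array left out it was 41 (without dn-cJun 17 or 19) to 252 (without control 12), and fewer arrays and another filter enter these fits. Of calls as deposited 4.01% were higher, and 39.4% in quantile-normalized values, with 24.1% at equal medians and 25% without controls 14 and 15.

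Calls in the wider lists, 1 as reported, were 7 with the values as deposited, 3 at a threshold of 0.1 and 30 unadjusted. They were 0 with no filter, the mean per gene, eBayes without trend, eBayes robust, array weights, either treatment of controls 14 and 15, and a threshold of 0.01, and 0 to 2 with 1 array left out.

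Signs turned in uncalled probe sets. As deposited, Mapk8 1420932_at was at -0.15 and 1440856_at at -0.045, Mapk9 1421877_at at -0.031, Map2k4 1451982_at at -0.035 and 1426233_at at -0.10, Map3k7 1419988_at at -0.086 and Dusp10 1417163_at at -0.049. Map3k1 1424850_at was at 0.016 and Map3k7 1449693_at at -0.11 both without and with a term for controls 14 and 15. Map3k7 1455441_at was at 0.0016 with array weights. With 1 array left out, Map3k7 1455441_at ranged from -0.11 to 0.059, Map3k1 1424850_at from -0.14 to 0.021, Mapk8ip1 1440619_at from -0.040 to 0.58 and Dusp10 1417163_at from -0.00051 to 0.20. Apart from the scaling and the arrays left out, the cause was not tested. Detection calls were not used here, and for the dim probe sets of Mapk8ip1, Dusp10 and Map3k7 the distance from background is unknown.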
